A study of Mus musculus with 7 samples.

Results

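The Hox genes of clusters A to D were examined in mouse bone marrow cells sorted as hematopoietic stem cells (HSCs). They were taken as all rows of the deposited gene table whose symbol is Hox, a cluster letter from a to d and a paralog number, which leaves out the antisense transcripts. This gave 33 genes of 33298 in the table, 10 in cluster A, 8 in cluster B, 8 in cluster C and 7 in cluster D. The annotation holds 39 such protein-coding genes, and the other 6, Hoxa13, Hoxb7, Hoxb8, Hoxc4, Hoxd1 and Hoxd13, were not analysed here. Cluster A lies on chromosome 6 (52155590 to 52260880 of GRCm38), cluster B on chromosome 11 (96194316 to 96368256), cluster C on chromosome 15 (102921103 to 103036852) and cluster D on chromosome 2 (74668310 to 74765142).

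Hox genes encode homeodomain transcription factors that give cells of the embryo their position along the body axis. Genes with the same number in different clusters are paralogs, copies of the same ancestral gene, and low numbers act towards the head and high numbers towards the tail. In blood, genes in the middle and towards the posterior end of clusters A and B are active in stem and early progenitor cells and are shut down as cells mature. Their proteins bind DNA together with partners of the TALE class, the MEIS and PBX proteins. The MLL1 protein, made by Kmt2a, keeps the genes active, while Polycomb complexes keep them silent.

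The mice were 12 weeks old and of 2 genotypes: Dek fl/fl mice, here Dek_fl, with 4 libraries, and Dek fl/fl mice carrying Tie2-Cre, here Dek_cKO, with 3 libraries. Both carry the floxed Dek alleles, and the Tie2 promoter drives Cre in the endothelium and in blood cells, so deletion is not limited to HSCs. Each library came from about 800 cells sorted as negative for lineage markers and CD48 and positive for Sca-1, c-Kit and CD150. The cDNA was made by a low-input method that primes on poly(A). The labels do not tie libraries to animals, and the spread that enters each p-value may therefore be technical.

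Expression was given in FPKM, fragments scaled by transcript length and by library total, which sets genes of different length on the same scale. Library totals read from the FPKM steps were 4209153 to 26951518 reads in Dek_fl and 4422645 to 12540427 reads in Dek_cKO, and 8575 to 19950 genes were above 0, with Dek_fl replicate 4 the lowest. All 33 Hox genes were whole reads in every library at their annotated transcript length, within 0.02 reads plus rounding, so the reads behind each value are known. Dek, which encodes a chromatin-binding protein and is the targeted gene, stood at 77.0, 117.8, 143.0 and 26.05 FPKM in Dek_fl and 9.60, 8.40 and 12.7 FPKM in Dek_cKO. The groups did not overlap, and the difference of means had p = 0.0571 by an exact permutation test, 2-sided over 35 splits, where the smallest possible p is 0.0286. The value in Dek_cKO replicate 3 has 5 decimals and stands for 405.8 reads, which is not whole; multiplied by 10 it is 4058 reads and 126.6 FPKM, within the Dek_fl range, and p is then 0.314. Fold changes without this library are therefore given below beside the Hox comparison.

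The sort phenotype was only in part visible in transcripts. Kit ranged from 59.4 to 266.7 FPKM and Ly6a, which encodes Sca-1, from 88.7 to 310.3 FPKM over the 7 libraries. Slamf1, which encodes CD150, was listed at 0 in 3 libraries and reached 1.80 FPKM, while Cd48, whose surface protein was gated out, ranged from 4.10 to 206.0 FPKM. Of 10 further HSC markers, 8 were above 0 in every library, and their summed level was 159.5 to 335.2 FPKM in Dek_fl and 208.3 to 279.3 in Dek_cKO. Of 8 neutrophil and monocyte markers, 3 were above 0 in every library, with sums of 135.7 to 1708 FPKM in Dek_fl and 137.1 to 7430 in Dek_cKO, highest in Dek_cKO replicate 3. Of 6 T and NK cell markers only Nkg7 was above 0 in every library and Cd3d was at 0 in all, with sums of 34.9 to 576.4 FPKM in Dek_fl and 451.3 to 1345 in Dek_cKO. Sums were 0 to 78.9 FPKM in Dek_fl and 2.03 to 69.2 in Dek_cKO for 6 B cell markers, 40.0 to 85.7 and 5.27 to 71.0 for 6 erythroid markers, and 111.7 to 1240 and 111.4 to 412.4 for 5 megakaryocyte markers. For 6 endothelial markers they were 75.6 to 145.6 and 93.4 to 133.5 FPKM, and 3 of these markers were above 0 in every library. Egfl7 ranged from 63.9 to 129.7 FPKM, while the endothelial cadherin Cdh5 was listed at 0 in 5 libraries and reached at most 0.340. For the 9 mesenchymal and bone markers in the table the sums were 17.2 to 24.9 and 15.5 to 56.1 FPKM. No gene of these marker lists was called between the groups by limma. Log2 fold changes were positive in all 6 tested neutrophil and monocyte markers (median 1.29) and negative in all 3 tested erythroid markers (median -1.57). Over all genes tested, 52% were positive. The part of other cells in the Hox values was not tested, and in bulk libraries a lower share of expressing cells and less RNA per cell cannot be told apart.

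Hox genes resemble each other most in the homeobox, the 180 bases that code for the DNA-binding homeodomain, so it was examined whether reads of a gene could belong to a relative, in the GENCODE M21 transcripts (GRCm38). Over all 33 genes, paralogs (genes of the same number) shared 71.7% to 93.9% of homeobox bases (median 82.8%, 29 pairs), and genes of different number in the same cluster 48.3% to 88.9% (median 62.2%, 122 pairs). Over the longest transcript of Hoxa9, 0 of 3177 windows of 50 bases occurred in a transcript of another gene on either strand, and likewise 0 for Hoxa5 and Hoxa10. Hoxa7 shared 27.1% of its windows with the antisense transcript Hoxaas3, which was at most 1.84 FPKM. Hoxb4 shared 0.477% and Hoxb5 1.86%, the latter with the antisense Hoxb5os. Among the genes that were not tested, the largest shares were 86.3% in Hoxd3, 68.7% in Hoxb3, 42.2% in Hoxd4, 33.7% in Hoxa11 and 26.3% in Hoxa3. These were shared with overlapping transcripts of their own cluster. The sources used here do not say whether counting used strand, so levels of these overlapping genes are uncertain.

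Cluster A held nearly all of the Hox signal in every library. Its summed level was 85.2, 102.7, 113.0 and 144.7 FPKM in Dek_fl and 90.8, 93.8 and 103.1 FPKM in Dek_cKO. Cluster B summed to 9.36, 3.92, 5.33 and 5.43 FPKM in Dek_fl and 4.18, 14.2 and 2.23 FPKM in Dek_cKO. Cluster C reached at most 4.23 FPKM, in Dek_cKO replicate 2, and cluster D at most 2.37 FPKM, in Dek_fl replicate 1. Cluster A thus took 82.5% to 97.8% of all Hox FPKM in a library (median 94.7%), cluster B 2.11% to 12.5%, cluster C 0% to 3.72% and cluster D 0% to 2.44%. The order A above B held in each of the 7 libraries. The sum over all Hox genes ranged from 96.4 to 150.1 FPKM, a ratio of 1.56 between the highest and the lowest library, whereas its make-up varied more, as the stacked plot by gene shows.

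**Figure D1:**
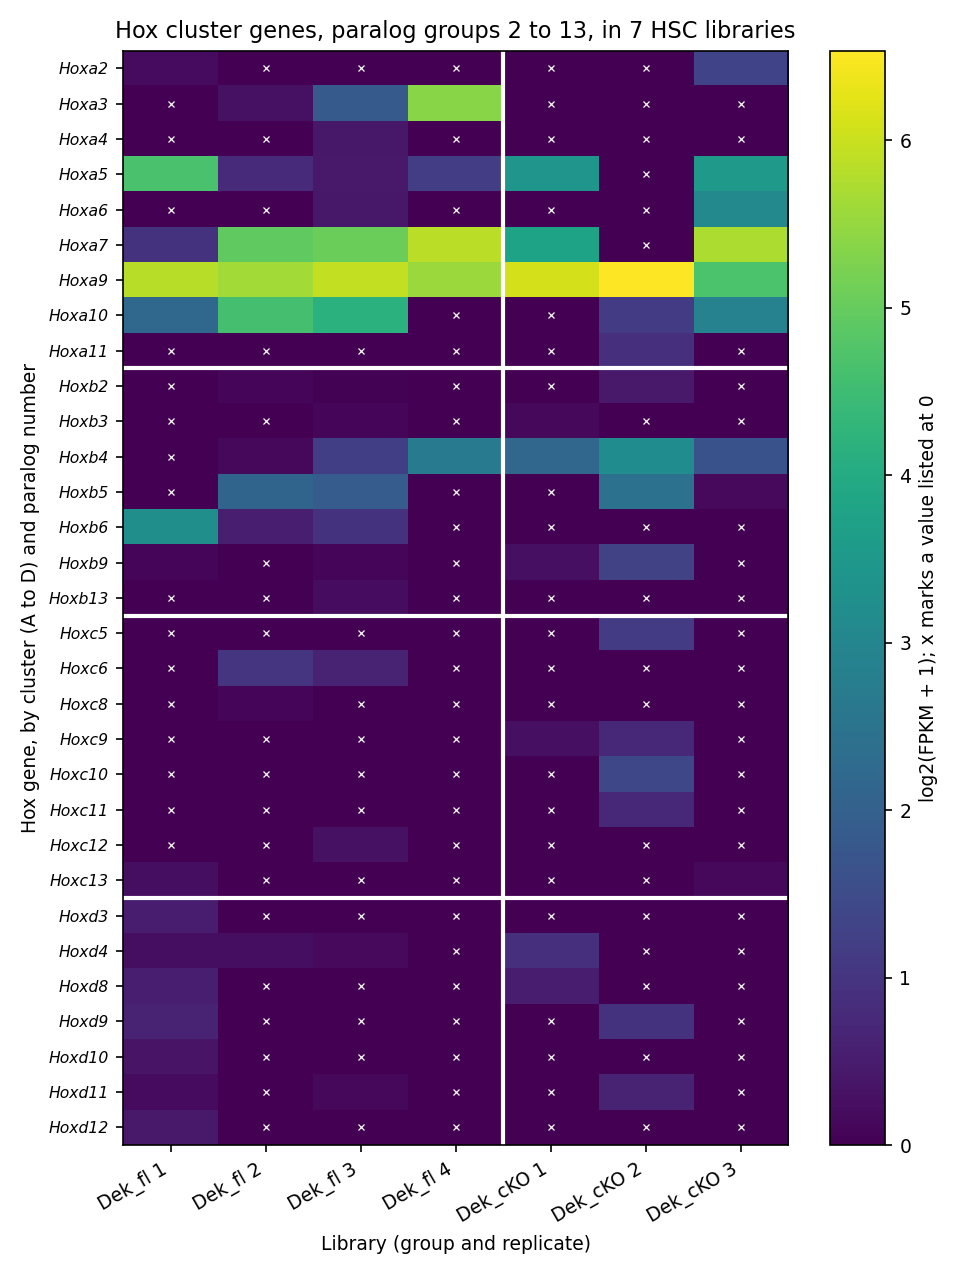
Level of each Hox gene of paralog groups 2 to 13 (rows, by cluster and paralog number; group 1 is not shown) in each library (columns, Dek_fl left and Dek_cKO right) as log2(FPKM + 1), with a cross where the value is listed at 0. Hoxa9 is the only row without a cross, and clusters C and D stay at or below 1.66 FPKM.

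**Figure D2:**
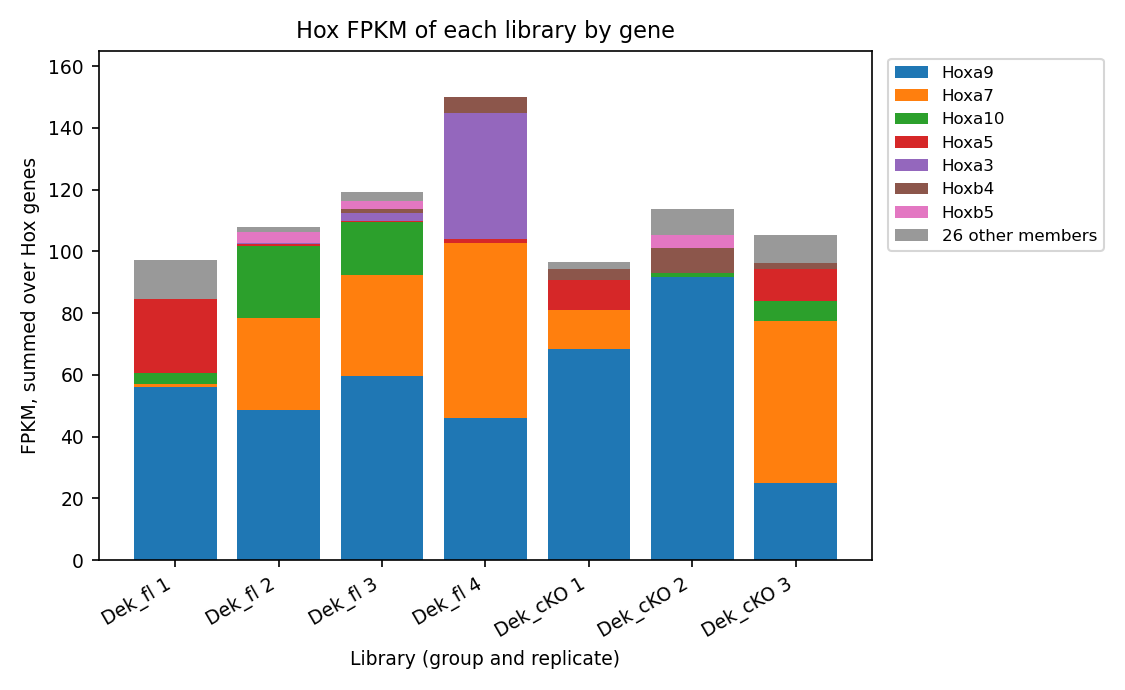
Summed FPKM of the Hox genes in each library, with 7 genes coloured and the other 26 in grey. Total height lies between 96.4 and 150.1 FPKM, while Hoxa7, Hoxa10, Hoxa5 and Hoxa3 change places from library to library.

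Hoxa9 (ENSMUSG00000038227, chromosome 6, 52223100 to 52231089, minus strand), which supports HSC repopulation in mice and drives leukaemia when overproduced, was the only Hox gene above 0 in all 7 libraries. It stood at 56.0, 48.6, 59.7 and 45.9 FPKM in Dek_fl against 68.3, 91.7 and 24.9 FPKM in Dek_cKO, from 670 to 5193 reads. The Dek_cKO libraries lay on both sides of the narrower Dek_fl range. The lowest was Dek_cKO replicate 3, where the neutrophil and monocyte markers summed highest. Those markers were next highest in Dek_fl replicate 2, at 1708 FPKM, where Hoxa9 was at 48.6 FPKM, and a relation was not tested. Among genes above 0 the percentile of Hoxa9 within a library ran from 77.0 to 93.3, and it was the highest Hox gene in 5 of 7 libraries. Its SD over the 7 libraries was 0.570 on the log2(FPKM + 1) scale. Of 1383 genes whose mean level was within 1.5 times of its own, 6.15% had a smaller SD, and 19.6% were listed at 0 in at least 1 library.

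Hoxa7 (chromosome 6, 52214491 to 52221854), which like Hoxa9 is activated together with Meis1 in mouse myeloid leukaemias, was the highest Hox gene in the remaining 2 libraries. It stood at 0.936, 29.8, 32.5 and 56.7 FPKM in Dek_fl against 12.7, 0 and 52.4 FPKM in Dek_cKO. In Dek_cKO replicate 2 no read was counted, which allows up to 0.334 FPKM (3 reads, counting error only), and that library had the highest Hoxa9. Dek_cKO replicate 3, with the lowest Hoxa9, had 1334 reads of Hoxa7.

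Hoxa10 (chromosome 6, 52231197 to 52240854), a regulator of HSC self-renewal and megakaryocyte development, stood at 3.52, 23.4, 17.2 and 0 FPKM in Dek_fl against 0, 1.23 and 6.498 FPKM in Dek_cKO. Its 2 highest values were those of Dek_fl replicates 2 and 3, with 941 and 1188 reads, and both groups held a library without a read. Hoxa5 (chromosome 6, 52201754 to 52204587), a gene of lung and skeletal patterning that is also active in blood progenitors, stood at 24.2, 0.749, 0.356 and 1.30 FPKM in Dek_fl against 9.67, 0 and 10.4 FPKM in Dek_cKO. Its high values of 108 to 244 reads were spread over both groups, in Dek_fl replicate 1 and Dek_cKO replicates 1 and 3.

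In cluster B, Hoxb4 (chromosome 11, 96318267 to 96321638), whose overproduction expands mouse HSCs, stood at 0, 0.0996, 1.32 and 5.43 FPKM in Dek_fl against 3.47, 8.02 and 2.11 FPKM in Dek_cKO. It was above 2 FPKM in each Dek_cKO library and in 1 Dek_fl library, and the groups overlapped. Hoxb5 (chromosome 11, 96303336 to 96306121), a reporter gene for long-term HSCs in mice, stood at 0, 3.30, 2.73 and 0 FPKM in Dek_fl against 0, 4.38 and 0.115 FPKM in Dek_cKO. It was thus without a read in 3 of 7 libraries, where 3 reads would amount to 0.181 to 0.256 FPKM.

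These 6 genes were the only Hox genes that reached 1 FPKM in 3 or more libraries, 18.2% of the 33, against 30.8% of all 33298 genes. The other 27 were above 0 in 50 of 189 values, with a median of 0.388 FPKM among those 50, and reached 1 FPKM in 8. The largest was Hoxa3, a gene of the pharyngeal arches and the thymus, at 40.7 FPKM and 477 reads in Dek_fl replicate 4. It was at 0, 0.222 and 2.59 FPKM in the other Dek_fl libraries and listed at 0 in all 3 Dek_cKO libraries. Outside the naming rule and picked after their values were seen, Hoxb6 was at 8.59 FPKM in Dek_fl replicate 1 and Hoxa6 at 7.48 FPKM in Dek_cKO replicate 3, each below 1 FPKM in the other libraries. The 15 genes of clusters C and D were above 0 in 25 of 105 values, each resting on 2 to 24 reads, and never exceeded 1.66 FPKM. All 7 genes of cluster D were above 0 in Dek_fl replicate 1, with 25 reads in all. In Dek_cKO replicate 2 the 4 cluster C genes above 0, Hoxc5, Hoxc9, Hoxc10 and Hoxc11, had 43 reads. The mesenchymal and bone markers summed highest in the same library, at 56.1 FPKM, of which 49.5 came from Pdgfrb, and the other 8 summed to 6.62 FPKM there, against 15.2 to 29.4 FPKM in the other libraries. The Hox genes above 0 numbered 17, 12, 18 and 5 in Dek_fl and 10, 13 and 9 in Dek_cKO. At the depth of the shallowest library the counts expected from the reads were 17, 10.7, 15.2 and 5 in Dek_fl and 9.86, 13 and 8.51 in Dek_cKO.

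By paralog number, group 9 took a median of 50.1% of the Hox FPKM of a library, group 7, with Hoxa7 alone in the table, 27.2%, group 5 4.94%, group 10 3.89% and group 4 2.004%. Groups 1, 8, 11, 12 and 13 each had a median of 0%. Within group 9, Hoxa9 was above Hoxb9, Hoxc9 and Hoxd9 in 7 of 7 libraries, by 5.51 ± 0.407, 5.61 ± 0.423 and 5.53 ± 0.469 on the log2(FPKM + 1) scale (mean difference ± SD, n = 7). In group 4 the order was the other way, with Hoxb4 above Hoxa4 in 6 of 7 libraries and equal at 0 in the other, by a mean of 1.51 ± 1.24 (SD, n = 7). Each of the 3 Hoxa9 pairs reached p = 0.0156 by an exact sign-flip permutation test over libraries, 2-sided, the smallest p that 7 libraries allow, and Hoxa4 against Hoxb4 had p = 0.0313. Of 29 pairs compared, 0 passed an adjusted p of 0.05 by this test, the smallest adjusted p was 0.151, and 4 had an unadjusted p under 0.05. With 7 libraries at least 10 pairs would have to reach the smallest p for any to pass, so the count of 0 says little.

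Loss of Dek was then examined for each Hox gene. None of the Hox genes tested passed the threshold. Of the 6 genes tested by limma on log2(FPKM + 1), 0 passed an adjusted p of 0.05, each with an adjusted p of 0.9999, where the background over all 10260 genes tested was 0%. Without adjustment, 0 of 6 had p under 0.05, against 3.94% of all genes (218 higher and 186 lower), and with voom on the recovered reads 0 of 6 passed the adjusted and 0 the unadjusted threshold, and 0 of all 10162 genes it tested passed the adjusted one. The groups overlapped in all 6, and over all genes tested they did not overlap in 4.94%. They also overlapped in the other 27 Hox genes. These 27, and Hoxa10 and Hoxb5 among the 6, were listed at 0 in libraries of both groups. That fixes their overlap, which therefore says nothing of the loss of Dek. The log2 fold changes, Dek_cKO minus Dek_fl, were positive in 3 and negative in 3, with a median of -0.047, against 0.053 over all genes and 52% positive.

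Hoxa9 had the narrowest interval of the 6, with means of 52.6 ± 6.41 FPKM in Dek_fl (SD, n = 4) against 61.6 ± 33.9 FPKM in Dek_cKO (SD, n = 3). Its log2 fold change was 0.046 (SE 0.805), with a 95% interval from -1.63 to 1.73, and it was 0.59 without Dek_cKO replicate 3 and -0.33 without Dek_cKO replicate 2. That interval still holds a change of more than 3-fold either way. Hoxa7 had a log2 fold change of -1.03 (SE 1.499), which was 0.56 without Dek_cKO replicate 2 and -2.31 without Dek_cKO replicate 3. Hoxa10 had -1.39 (SE 1.39) and Hoxa5 0.53 (SE 1.39), and without Dek_cKO replicate 3 they had -2.16 and -0.067. In cluster B, Hoxb4 had 1.32 (SE 1.10) and Hoxb5 -0.14 (SE 0.876), and without Dek_cKO replicate 3 they had 1.66 and 0.21. All are differences of log2(FPKM + 1), where the added 1 shrinks changes of weakly expressed genes.

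**Figure D3:**
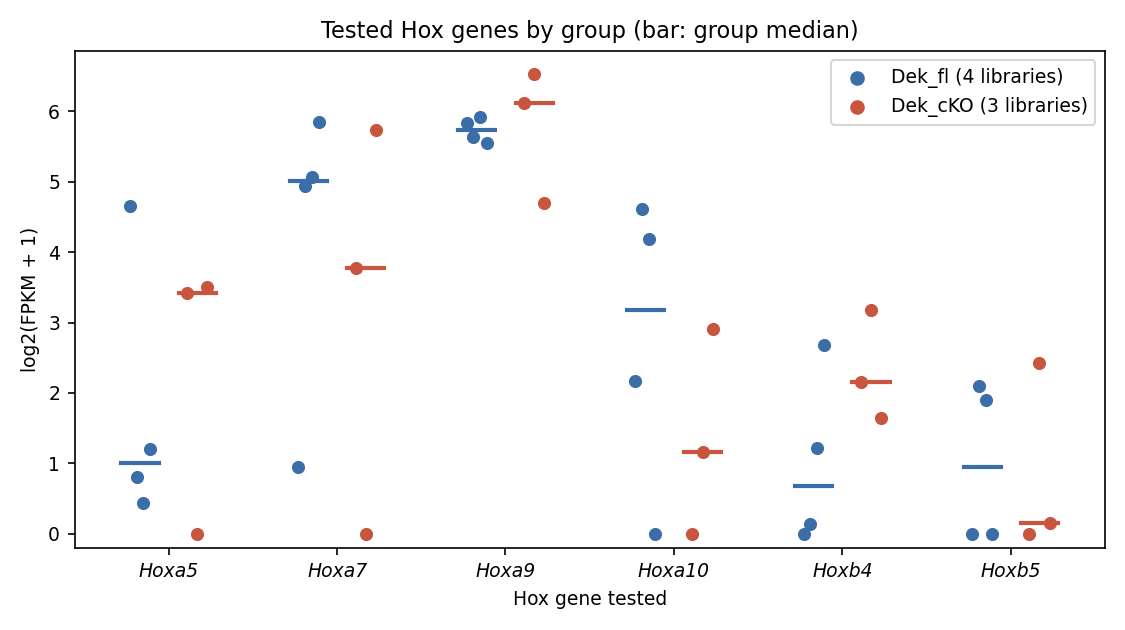
Level of the 6 tested Hox genes as log2(FPKM + 1), with 1 point per library, Dek_fl in blue, Dek_cKO in red and a bar at each group's median. The groups overlap in every gene, and Hoxa9 alone has no point at 0.

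**Figure D4:**
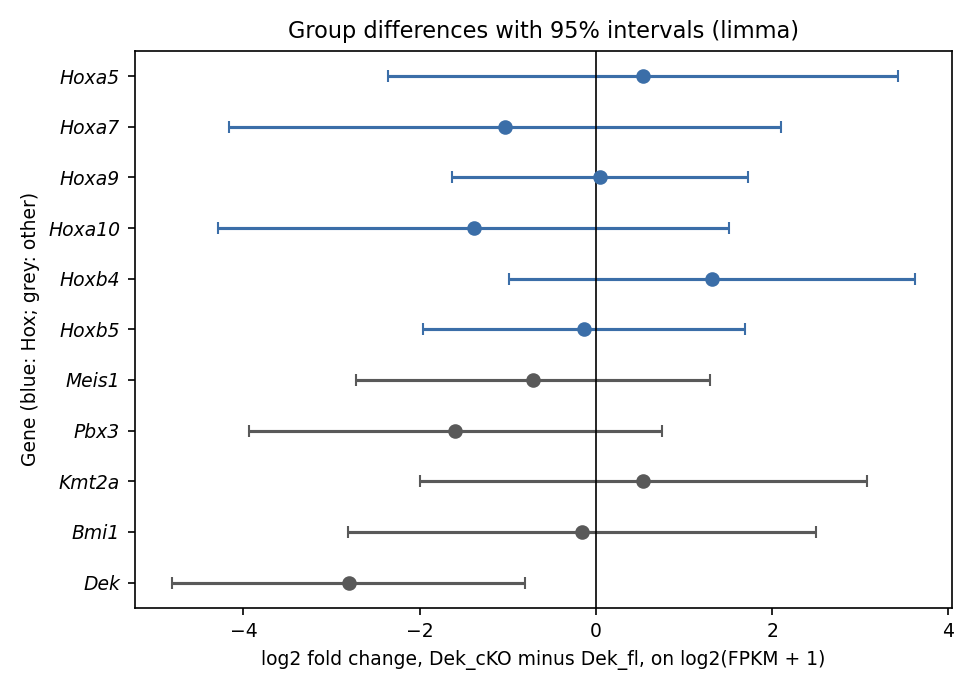
Log2 fold change, Dek_cKO minus Dek_fl, with its 95% interval from limma for the 6 tested Hox genes (blue) and for cofactors, regulators and Dek (grey). The interval of each Hox gene crosses 0, while that of Dek, on its deposited values, runs from -4.81 to -0.80. These intervals are not adjusted for the number of genes tested. Dek too was not called by limma, with an adjusted p of 0.9999.

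Partners of the Hox proteins were measured in the same libraries. Meis1, a TALE factor that acts with HOXA9, stood at 26.8, 37.2, 29.3 and 88.2 FPKM in Dek_fl against 49.5, 14.3 and 19.4 FPKM in Dek_cKO. Its log2 fold change was -0.72 (SE 0.962). It was above 0 in all 7 libraries, as Hoxa9 was, it was highest in Dek_fl replicate 4, and the groups overlapped. Pbx3, which forms complexes with HOXA9 and MEIS1 in leukaemia, was lower, at 7.23, 0.224, 9.83 and 4.02 FPKM in Dek_fl and 0.470, 1.58 and 0.0837 FPKM in Dek_cKO. Of 11 TALE genes 7 were tested, with 0 called and a median log2 fold change of -0.35. The 2 of smallest unadjusted p were Pbx3, with -1.59 (SE 1.12), and Tgif1, with 1.02 (SE 1.07).

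Regulators of Hox genes were called in no direction by limma. Kmt2a, the methyltransferase that maintains Hox transcription, had means of 10.7 ± 7.68 FPKM in Dek_fl (SD, n = 4) against 13.5 ± 2.70 FPKM in Dek_cKO (SD, n = 3), and its log2 fold change was 0.54 (SE 1.21). Of 20 genes of MLL complexes and their elongation partners, 19 were tested, 0 were called and the median was -0.12. At an unadjusted p under 0.05 there was 1, Mllt1, a subunit of the elongation machinery, with 1.94 (SE 0.804), at 0, 0.195, 0.401 and 0 FPKM in Dek_fl and 2.42, 8.21 and 1.64 FPKM in Dek_cKO. Next came the nucleoporin gene Nup98, with 2.52 (SE 1.26). In these 2 of 19 the groups did not overlap, against 4.94% of all genes tested. Mllt1 passed the filter of 1 FPKM in 3 libraries through its Dek_cKO values alone. That fixed its lack of overlap and favoured a small p, so neither says anything of the loss of Dek. Bmi1, a Polycomb subunit that HSCs need for self-renewal, had means of 16.6 ± 15.6 FPKM in Dek_fl (SD, n = 4) against 12.7 ± 9.52 FPKM in Dek_cKO (SD, n = 3). Of 18 Polycomb genes, all tested, 0 were called at either threshold, with a median of -0.068. Ring1 and Rnf2, which encode the catalytic subunits of Polycomb complex 1, had -1.50 (SE 0.755) and -1.82 (SE 1.05). They were the 2 of 18 without overlap, against 4.94% of all genes tested. Ring1 was at 5.31, 1.10, 0.407 and 2.43 FPKM in Dek_fl and listed at 0 in all Dek_cKO libraries. It passed the filter through its Dek_fl values alone, which favoured both its lack of overlap and its negative fold change, so these are not evidence of a change. Rnf2 was at 96.3, 46.3, 20.9 and 32.7 FPKM in Dek_fl against 12.4, 5.44 and 19.8 FPKM in Dek_cKO.

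Upstream inputs and targets gave no call either. Of 12 Cdx and retinoid genes 3 were tested, among them the retinoid receptor gene Rxrb, with 1.88 (SE 1.31), and Aldh1a1, which makes retinoic acid, with -0.90 (SE 1.013). Of 10 genes known as targets of HOXA9 and MEIS1 in mouse leukaemia models, all were tested and above 0 in every library, 7 had positive fold changes and the median was 0.15. The smallest p in that list belonged to the HSC factor Lmo2, with 0.49 (SE 0.455), and to Id2, with -1.05 (SE 1.47). Of 8 other homeobox genes of blood cells 5 were tested, with a median of -0.64. Hhex had -1.15 (SE 1.28), and Zeb1 had 2.43 (SE 1.29). Zeb1 was the 1 of these 5 whose groups did not overlap, against 4.94% of all genes tested. Both were named for the smallest p of that list.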

How the data were processed

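RNA sequencing of sorted HSCs was analysed from 1 table of 33298 genes and 7 libraries, grouped by sample title, with 0 columns of per-sample values left unmapped. The deposited unit is FPKM. Build mm10 and the tools HTSeq, Cufflinks 2.1.1 and Bowtie 0.12.9 are named, per the submitters' processing notes, without their roles, and the annotation used is not stated there. Library totals were computed as the numbers that make FPKM, multiplied by the longest GENCODE M21 transcript length, whole reads; the method was tested on simulated data. Intervals and limits from reads cover counting error only.

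Groups were compared with limma 3.58.1 (R 4.3.3) on log2(FPKM + 1) over genes that reached 1 FPKM in 3 or more libraries, with trend and robust moderation and Benjamini-Hochberg adjustment over all genes; the step was tested on simulated data. Paralogs of the same number were compared by an exact sign-flip permutation test over libraries. Hox genes that passed the filter, and any other with 10 FPKM in a library, were named with all values; of each cofactor, regulator and target list Meis1, Pbx3, Kmt2a and Bmi1 and the 2 genes of smallest p were named. Another cofactor in the rule is not reported here. The genes, lists and rule were chosen with earlier results of these data known. Alternatives were other pseudocounts, filters, scalings, voom on recovered reads, leaving out single libraries, and a fit with the replicate number as block. Tables were handled with pandas 2.3.3 under Python 3.11.15.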

Additional observations from a re-analysis of the deposited data

Results flagged for a closer look

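In the group of 4 Dek_fl libraries a single library stood far from the other 3 in 5 of 30 measures examined. The rule flags about 1 in 20 groups by chance only where values are normally distributed. FPKM such as those of Hoxa3 are skewed, so the 5 flags say nothing of an excess over chance. Hoxa5 was at 24.2 FPKM in Dek_fl replicate 1, against at most 1.30 in the others. Hoxa3 was at 40.7 FPKM in Dek_fl replicate 4, against at most 2.59. Meis1 was at 88.2 FPKM in the same library, which also had the fewest genes above 0. The summed level of cluster D was 2.37 FPKM in Dek_fl replicate 1, on 25 reads. Aldh1a1 was at 20.1 FPKM in Dek_fl replicate 2, against at most 1.61 in the others.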

How the results depend on the processing

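The count of called Hox genes was 0 under each of the 15 alternatives. The count of paralog pairs past the adjusted threshold was 0 under each of 9, but this says nothing of stability: without a library the smallest p is 0.0313, and at least 19 of 29 pairs would have to reach it for any to pass. Labels give both groups replicates 1 to 3, but same-numbered libraries did not deviate together (r = -0.030, -0.073 and 0.045). The labels do not say whether they share more than a number, and values of r near 0 cannot settle it. With a replicate block 0 Hox genes were called. Of 12 pairs of libraries the largest r was 0.072, between Dek_fl replicate 4 and Dek_cKO replicate 2. The log2 fold change of Hoxa9 turned to -0.015 with the replicate block and to -0.32 with voom on recovered reads, and ranged from -0.33 to 0.59 when single libraries were left out. The ranges without single libraries were -0.067 to 1.69 for Hoxa5, -2.31 to 0.56 for Hoxa7, -2.30 to -0.71 for Hoxa10, 0.89 to 1.87 for Hoxb4 and -0.47 to 0.29 for Hoxb5, so the sign held for Hoxa10 and Hoxb4 only; the cause was not tested. Hoxa5 and Hoxb5 were not tested with the filter at 5 libraries, and Hoxb5 not in 3 of the fits without a library. Over all genes, those lower in Dek_cKO at an unadjusted p under 0.05 numbered 186, against 337 with the replicate block, 346 without Dek_fl replicate 4 and 96 without Dek_cKO replicate 2. The difference of Dek ranged from -102.4 to -63.4 FPKM without single libraries. The count of Hox genes at the level filter was 4 at 5 FPKM and 5 to 6 without single libraries. The median share of cluster A was 95.3% in reads, an alternative chosen after seeing the data. With a median SE of 1.25 over all genes, changes of the size of the Hoxa7 or Hoxb4 estimates were not detectable with these libraries.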

Other observations

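Other transcripts lie within the Hox clusters and were not among the genes compared. Hotairm1, an antisense RNA of cluster A, was at 9.83 FPKM in Dek_cKO replicate 2 and at most 0.671 FPKM in the other libraries. Hoxb5os, antisense to Hoxb5, was at 17.9 FPKM in Dek_cKO replicate 3, where Hoxb5 was at 0.115 FPKM, and at most 0.858 FPKM elsewhere. Hoxb5 and Hoxb5os share 51 windows of 50 bases.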
